A study of Mus musculus with 14 samples.

Results

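The genes described here are 10 complement components and receptors, *C1qa*, *C1qb*, *C1qc*, *C3*, *C4b*, *Cfb*, *C3ar1*, *C5ar1*, *Itgam* and *Itgb2*. They were chosen by symbol, and each matched a single Ensembl row among the 33939 genes measured. RNA was sequenced from CD11b+ microglia/macrophages, isolated with magnetic beads from the contralateral (CL, non-lesion) and ipsilateral (IL, lesion) hemispheres at 3 days after traumatic brain injury (TBI) by controlled cortical impact. The mice were males on a C57BL/6 background, aged 8 to 12 weeks. Ctrl mice were Cx3cr1-CreER+/-, and cKO mice carried Cx3cr1-CreER+/- and a homozygous floxed target gene, which tamoxifen removes from cells that express *Cx3cr1*. All mice of both genotypes thus carried the CreER allele, received tamoxifen and were injured, and the CL hemispheres are those of injured mice. Ctrl gave 4 CL and 4 IL libraries and cKO gave 3 of each, from 8 mice by their numbers, and 6 mice gave both. The protein of *Itgam* is CD11b itself, so the cells were selected on the product of a gene described here.

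Complement is a cascade of plasma and tissue proteins that tags targets and recruits phagocytes. The C1q hexamer, built from the chains of *C1qa*, *C1qb* and *C1qc*, starts the classical pathway, which cleaves C4 and then C3. Factor B, encoded by *Cfb*, forms the C3-cleaving enzyme of the alternative pathway. Cleavage releases the small peptides C3a and C5a, whose receptors are encoded by *C3ar1* and *C5ar1*, and leaves C3 fragments on surfaces, which are bound by complement receptor 3, the integrin made of *Itgam* (CD11b) and *Itgb2* (CD18). Microglia are the main source of C1q in the brain, and complement receptor 3 on microglia takes part in the removal of tagged synapses and debris.

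Values are deposited CPM, reads per 1e+06 reads assigned. The libraries held 12.2 M to 41.6 M reads (median 34.2 M, where M stands for 1e+06), and the IL library of Ctrl mouse 3546 was the shallowest. The summed CPM of 6 microglial markers was 21932 to 29824 in the CL and 12476 to 14019 in the IL libraries. The summed CPM of 8 neutrophil markers was 544 to 7764 in Ctrl CL, with mouse 3541 highest, 583 to 1638 in cKO CL and 157 to 979 over the IL libraries. Markers of monocytes (76.6 to 662), border-associated macrophages (157 to 746), oligodendrocytes (80.8 to 193), endothelial cells (49.0 to 152) and astrocytes (29.0 to 103) gave these sums over the 14 libraries, and those of neurons, B cells and T and NK cells summed to at most 2.72, 2.47 and 10.7 CPM. No gene of these lists was at 0 in all libraries. In bulk RNA, fewer cells of a type and less RNA per cell cannot be told apart. The IL library of Ctrl mouse 3546 stands apart in *Aif1*, a gene of microglia and macrophages, at 71.2 CPM against 271 to 372 in the other 13 libraries.

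Per kb of transcript, the C1q chains were the most abundant of the 10 genes in every group. In Ctrl CL libraries *C1qb* stood at 6496 ± 1805 CPM per kb (mean ± SD, n = 4), *C1qc* at 4643 ± 1108 and *C1qa* at 4074 ± 681, and the ranges of these neighbours overlapped. The integrin chains and the peptide receptors followed. *Itgb2* stood at 239 ± 41.1, *Itgam* at 238 ± 100.5, *C5ar1* at 160 ± 23.6 and *C3ar1* at 118 ± 4.52 CPM per kb in Ctrl CL. *Itgb2* and *Itgam* overlapped, as did *Itgam* and *C5ar1*, whereas *C5ar1* and *C3ar1* were separate. The genes of the soluble components C4, C3 and factor B were lowest, with *C4b* at 13.5 ± 4.08, *C3* at 3.17 ± 2.38 and *Cfb* at 1.88 ± 1.41 CPM per kb, of which the last 2 overlapped. In the cKO CL libraries *Cfb* (2.80 ± 2.04) and *C3* (1.82 ± 0.80 CPM per kb) also overlapped. In the IL hemispheres *Cfb* stood above *C3*, at 5.25 ± 1.66 against 2.64 ± 0.69 CPM per kb in Ctrl and 11.0 ± 3.62 against 3.61 ± 1.03 in cKO, with separate ranges in both genotypes. The 3 C1q genes together took 0.891% to 2.08% of the reads of a library.

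**Figure D1:**
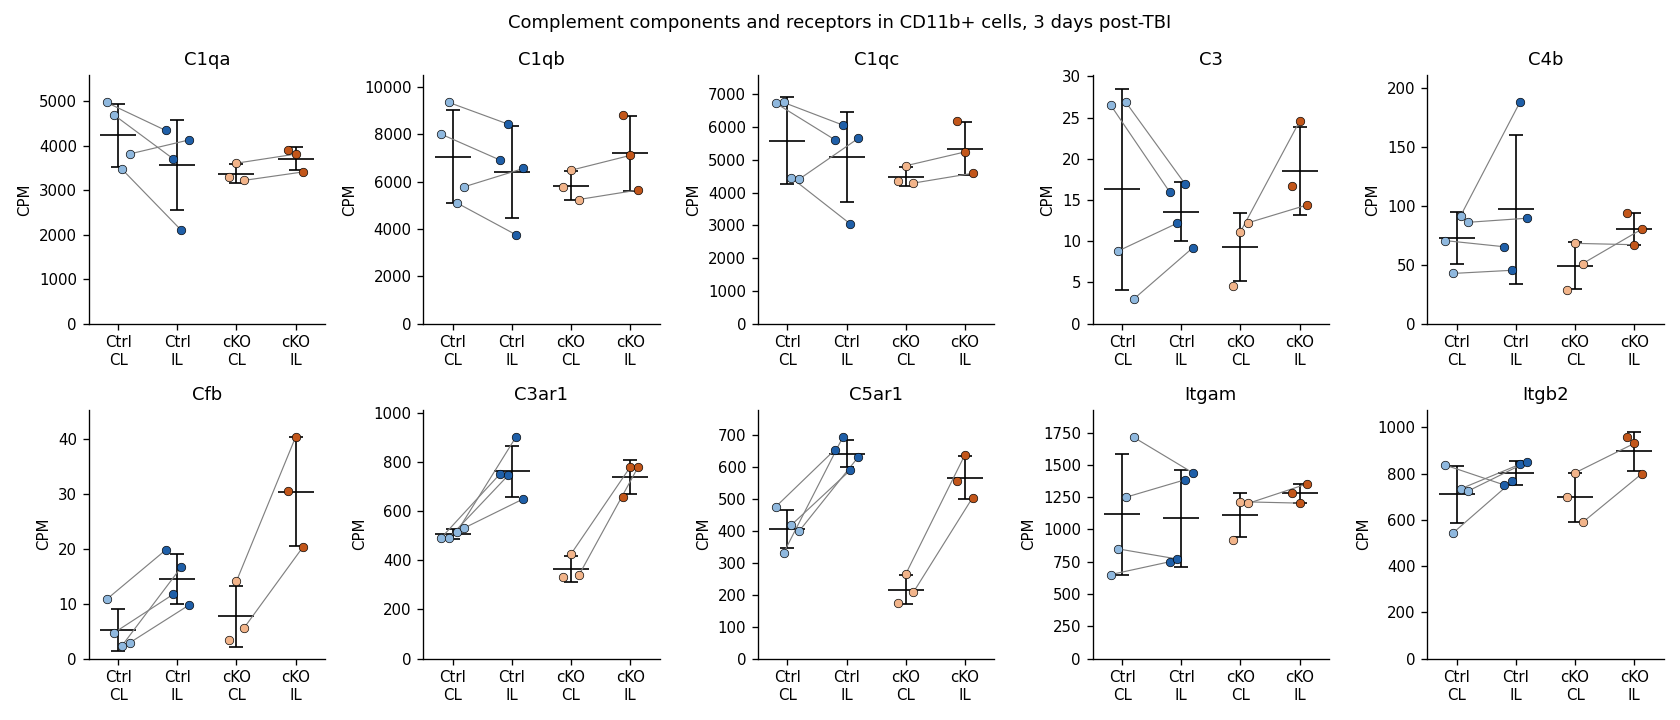
CPM of the 10 complement genes (vertical axes, linear from 0) in the 14 libraries, by genotype and hemisphere. Points are libraries, bars are the mean ± SD of 4 Ctrl or 3 cKO libraries, and grey lines join the hemispheres of the same mouse. *C3ar1*, *C5ar1* and *Cfb* were higher in the IL hemisphere of all 6 mice, whereas the 3 C1q genes were lower in the IL hemisphere of 3 of 4 Ctrl mice and higher in that of 2 of 2 cKO mice.

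The first comparison asked how the injured hemisphere differs from the CL hemisphere within each genotype. In Ctrl mice, *C3ar1* and *C5ar1* rose in the IL hemisphere, and the other 8 complement genes were not called. In cKO mice *C3ar1*, *C5ar1* and *Cfb* rose and 7 were not called. Calls needed a fold change of at least 1.2 and a limma p, adjusted by Benjamini and Hochberg over all genes tested, of at most 0.05. All 10 genes passed the filter on low values in every comparison. The 2 of 10 in Ctrl stand beside 3.63% of 16376 genes called higher (6.58% in either direction), and the 3 of 10 in cKO beside 12.8% of 16757 genes (22.4% in either direction). The median log2 fold change of the 10 genes was 0.22 in Ctrl and 0.65 in cKO, beside -0.04 and 0.02 over all genes tested. Positive log2 fold changes were found for 7 of 10 genes in Ctrl, where 45.5% of all genes tested were positive, and for 10 of 10 in cKO, where 52.0% were. With the mouse as a replicate block, *C3ar1*, *C5ar1* and *Cfb* were called in both genotypes, beside 9.81% of genes called higher in Ctrl and 8.89% in cKO. In this fit of cKO the unpaired libraries of mice 784 and 788 drop out. That leaves 2 mice and 1 residual degree of freedom, against 4 mice and 3 residual degrees of freedom in Ctrl.

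*C3ar1*, on chromosome 6 (GRCm38, chr6:122847138-122856161, minus strand), encodes the receptor for C3a, a G protein-coupled receptor of myeloid cells. It stood at 492, 492, 514 and 532 CPM in the Ctrl CL libraries and at 754, 746, 902 and 651 CPM in the Ctrl IL libraries of mice 3541, 3545, 3546 and 3551. The Ctrl CL libraries lay close together, and every IL library lay above them. In cKO mice it stood at 331, 426 and 338 CPM in the CL libraries of mice 788, 791 and 3592 and at 658, 780 and 779 CPM in the IL libraries of mice 784, 791 and 3592. Again the hemispheres did not overlap. Between hemispheres the log2 fold change was 0.65 in Ctrl (SE 0.16, limma's adjusted p = 0.0392) and 1.10 in cKO (SE 0.14, limma's adjusted p = 0.00254). Groups without overlap between hemispheres were found for 17.7% of all genes tested in Ctrl and 42.4% in cKO.

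*C5ar1*, on chromosome 7 (GRCm38, chr7:16246743-16259540, minus strand), encodes the receptor for C5a, a chemoattractant of neutrophils and macrophages. Its CPM in Ctrl mice 3541, 3545, 3546 and 3551 was 476, 330, 418 and 398 in the CL and 654, 693, 590 and 630 in the IL hemispheres. In cKO mice it was 175, 264 and 208 CPM in the CL (mice 788, 791 and 3592) and 557, 637 and 503 CPM in the IL hemispheres (mice 784, 791 and 3592). The IL libraries lay above the CL libraries in both genotypes, and the cKO CL libraries were the lowest of all 14. For *C5ar1* the log2 fold change was 0.74 in Ctrl (SE 0.19, limma's adjusted p = 0.0456) and 1.49 in cKO (SE 0.17, limma's adjusted p = 0.00217).

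Both receptors were called in cKO in all 14 alternatives, including each left-out library. In Ctrl the calls, but not the direction, depended on single libraries. Without a library the log2 fold change ranged from 0.57 to 0.77 for *C3ar1* and from 0.63 to 0.87 for *C5ar1*. That of *C3ar1* remained in 1 of 8 fits without a library (the IL library of mouse 3551) and that of *C5ar1* in 2 of 8 (the CL library of mouse 3541 or the IL library of mouse 3546), with adjusted p values up to 0.131 and 0.149. With the mouse as a replicate block the adjusted p values were 0.00511 and 0.00595 in Ctrl. The summed microglial markers were lower in the IL than in the CL libraries, in the ranges given above. The summed neutrophil markers had a median of 3017 CPM in Ctrl CL and 395 in Ctrl IL libraries, and of 907 in cKO CL and 308 in cKO IL libraries. For the summed monocyte markers the medians were 268 and 235 CPM in Ctrl CL and IL and 119 and 179 CPM in cKO CL and IL libraries. The genes of this list differed in Ctrl. *Chil3* ranged from 27.8 to 538 CPM in the CL and 45.8 to 183 in the IL libraries, and *Ly6c2* and *Plac8* overlapped too. *Ccr2* (30.8 to 40.9 against 59.1 to 91.7 CPM), *F10* (0.56 to 6.13 against 22.3 to 41.2) and *Vcan* (1.12 to 1.76 against 3.10 to 6.80) were higher in the IL libraries without overlap. The summed astrocyte markers ranged from 41.2 to 50.3 CPM in Ctrl CL and 50.4 to 93.5 in Ctrl IL, and from 29.0 to 66.5 in cKO CL and 51.3 to 103 in cKO IL libraries. The part of these markers in the differences of the receptors was not tested.

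The region before the start of *C3ar1* is shown because *C3ar1* rose in the IL hemisphere in both genotypes and RefSeq holds its window. The 246 bases before the annotated transcripts (RefSeq, GRCm38.p6, chr6:122856162-122856407, minus strand, 5′ to 3′) read as follows, with capitals for matches to the searched motifs.
C3ar1: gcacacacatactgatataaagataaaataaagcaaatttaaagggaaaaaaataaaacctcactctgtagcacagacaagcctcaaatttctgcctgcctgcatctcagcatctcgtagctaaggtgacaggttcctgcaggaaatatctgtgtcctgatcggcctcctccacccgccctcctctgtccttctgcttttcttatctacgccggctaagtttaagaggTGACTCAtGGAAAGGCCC
The first run in capitals, at -22 from the RefSeq start, matches the AP-1 motif TGANTCA, which 7.81% of 32851 windows of 300 bases hold on either strand. The second run holds, on the opposite strand, a match to a loose NF-kB motif (GGG, any 5 bases, CC), which 50.8% of the windows hold. Motifs of ISRE (TTTC, any 2 bases, TTTC), GAS (TTCNNNGAA), ETS (GAGGAA) and C/EBP (TTGCNNAA) had no match in the *C3ar1* window. The RefSeq window of *C5ar1*, which also rose in both genotypes, had no match to any of the searched motifs. Too few of its bases lie before the annotated transcripts for it to be shown. A match is a description of letters and was not tested as a site.

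*Cfb*, on chromosome 17 (GRCm38, chr17:34856374-34862518, minus strand), encodes factor B, the serine protease of the alternative pathway convertase. It stood at 10.8, 4.71, 2.33 and 2.86 CPM in the CL and at 19.8, 11.7, 16.6 and 9.71 CPM in the IL libraries of Ctrl mice 3541, 3545, 3546 and 3551. In cKO mice it stood at 3.46, 14.045 and 5.58 CPM in the CL (788, 791 and 3592) and at 30.4, 40.3 and 20.4 CPM in the IL libraries (784, 791 and 3592). The hemispheres overlapped in Ctrl, through the CL library of mouse 3541 alone, and did not overlap in cKO. Within the mice that gave both hemispheres, the IL to CL ratio of CPM was 1.84 to 7.13 in 4 Ctrl and 2.87 to 3.65 in 2 cKO mice. *Cfb* rose in cKO by 2.07 on the log2 scale (SE 0.43, limma's adjusted p = 0.0127), a call that was lost only without the IL library of mouse 791 (adjusted p = 0.0556). In Ctrl the difference was 1.52 (SE 0.44, limma's adjusted p = 0.0728), not called. Leaving out CL of Ctrl mouse 3541 brought *Cfb* past the rule (1.93, limma's adjusted p = 0.0159), and with the mouse as a replicate block as well (1.52, SE 0.24, limma's adjusted p = 0.00566). *Cfb* overlaps the gene model *Gm20547*, and whether counting used strand is not given in the sources used here, so reads of the shared stretch are uncertain.

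*C3*, the central component cleaved by all pathways, lies on chromosome 17 (GRCm38, chr17:57203970-57228136, minus strand). It ranged from 2.99 to 26.8 CPM over the 4 Ctrl CL libraries and from 9.21 to 16.9 CPM over the Ctrl IL libraries, which overlapped. In cKO it stood at 4.59, 11.1 and 12.2 CPM in the CL (788, 791 and 3592) and at 16.7, 24.5 and 14.4 CPM in the IL libraries (784, 791 and 3592), without overlap. Its difference on the log2 scale was 0.17 in Ctrl (SE 0.59, limma's adjusted p = 0.928) and 1.07 in cKO (SE 0.34, limma's adjusted p = 0.0556), neither of which was called. Without the CL library of mouse 3592 *C3* was called in cKO (1.28, limma's adjusted p = 0.0264).

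*C4b*, encoding the C4 protein of the classical and lectin pathways, lies 112491 bases from *Cfb* in the same region of chromosome 17 (GRCm38, chr17:34728380-34743882, minus strand). Its CPM in Ctrl mice 3541, 3545, 3546 and 3551 was 70.5, 42.7, 91.6 and 86.0 in the CL and 65.3, 45.3, 188 and 89.5 in the IL hemispheres. The IL library of mouse 3546 was more than 2-fold above every other Ctrl IL library, and it is also the shallowest. In cKO it stood at 28.8, 68.2 and 51.1 CPM in the CL (788, 791 and 3592) and at 93.8, 67.03 and 80.3 CPM in the IL libraries (784, 791 and 3592), and these overlapped through mouse 791. For *C4b* the difference on the log2 scale was 0.34 in Ctrl (SE 0.33, limma's adjusted p = 0.649) and 0.85 in cKO (SE 0.26, limma's adjusted p = 0.0502), neither called. Without the CL library of mouse 791 it was called in cKO (1.12, limma's adjusted p = 0.0188). The transcripts of *C4b* and its copy *C4a* match over 5378 bases at 96.0% identity, so reads could be shared. *C4a* was at most 1.82% of *C4b* in any library.

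The 3 genes of C1q lie next to each other on chromosome 4 within 18675 bases, *C1qb* (GRCm38, chr4:136880129-136886187), *C1qc* (chr4:136889804-136893065) and *C1qa* (chr4:136895917-136898803), all on the minus strand. None of them was called between hemispheres. *C1qa* stood at 4973, 4688, 3474 and 3815 CPM in the CL and 4344, 3703, 2105 and 4129 CPM in the IL libraries of Ctrl mice 3541, 3545, 3546 and 3551. The IL library of mouse 3546 was the lowest of the 14 for all 3 genes, and the remaining Ctrl libraries overlapped between hemispheres. In cKO, *C1qa* stood at 3298, 3608 and 3222 CPM in the CL (788, 791 and 3592) and at 3902, 3812 and 3412 CPM in the IL libraries (784, 791 and 3592). On the log2 scale the differences of *C1qa*, *C1qb* and *C1qc* were -0.21, -0.08 and -0.08 in Ctrl (limma's adjusted p = 0.798, 0.947 and 0.946) and 0.22, 0.37 and 0.33 in cKO (limma's adjusted p = 0.469, 0.4003 and 0.366). The intervals (95%) for *C1qa* were -0.94 to 0.52 in Ctrl and -0.24 to 0.68 in cKO, so changes within them remain possible. Without the IL library of mouse 3546 all 3 values in Ctrl were positive, at 0.09, 0.22 and 0.21. The 6 microglial markers together were lower in every IL library than in every CL library, which the C1q genes were not.

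The C1q chains varied less in proportion than in level. The ratio of *C1qb* to *C1qc*, each as CPM per kb, ranged from 1.27 to 1.58 over the 14 libraries, a 1.25-fold range, where the CPM of *C1qb* spanned 2.48-fold and that of *C1qc* 2.22-fold. The ratio of *C1qb* to *C1qa* spanned 1.55-fold and that of *C1qc* to *C1qa* 1.42-fold. The ratio of *Itgam* to *Itgb2*, the chains of complement receptor 3, spanned 3.04-fold, from 0.49 to 1.5. The ratio of *C3ar1* to *C5ar1* was 0.95 to 1.12 in the 3 cKO CL libraries and 0.61 to 0.91 in the other 11, a division noticed in the values and not tested.

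The window of *C1qb* is shown as that of the most abundant of the 10 genes. The 250 bases before its start (RefSeq, GRCm38.p6, chr4:136886201-136886450, minus strand, 5′ to 3′) are given with capitals for matches.
C1qb: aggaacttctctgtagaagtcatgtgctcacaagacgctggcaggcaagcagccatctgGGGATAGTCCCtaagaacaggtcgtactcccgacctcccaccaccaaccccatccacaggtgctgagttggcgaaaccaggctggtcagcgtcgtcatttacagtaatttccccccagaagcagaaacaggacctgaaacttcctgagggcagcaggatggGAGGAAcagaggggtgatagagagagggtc
The first capitals hold overlapping matches to the loose NF-kB motif on both strands, at -191 and -190, and the second a match to the ETS motif GAGGAA at -30. The ETS motif, named for the family of the myeloid factor PU.1, is held by 28.3% of all windows. The AP-1 motif of the *C3ar1* window had no match in the *C1qb* window. RefSeq windows were matched for 6 of the 10 genes.

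**Figure D2:**
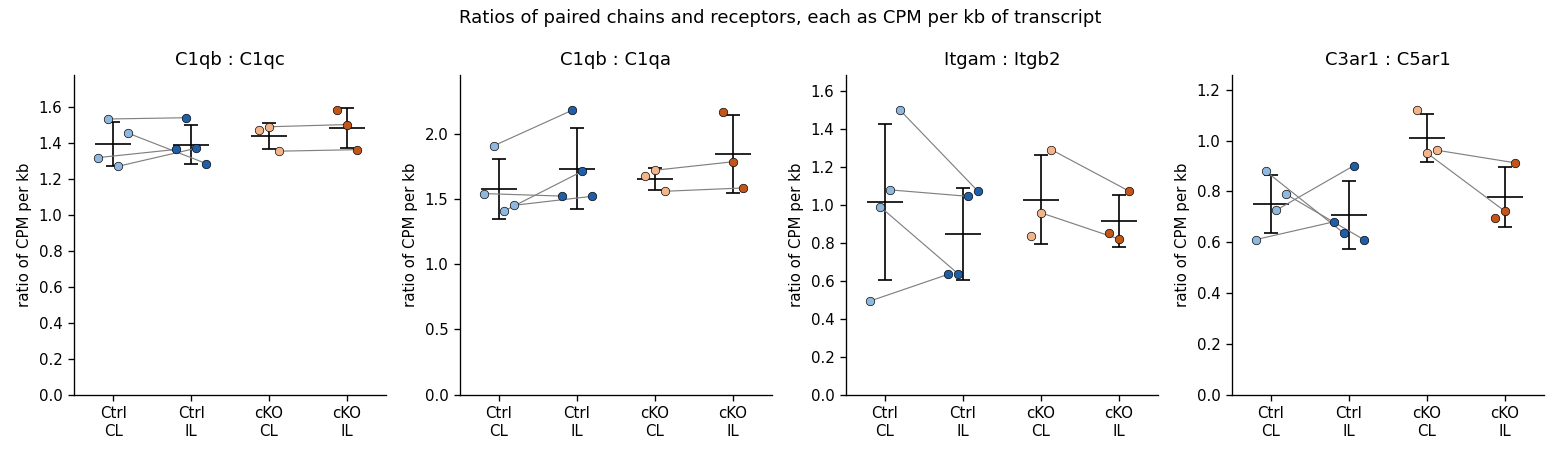
Ratio of CPM per kb of transcript (vertical axes, linear from 0) for 4 pairs of complement genes in the 14 libraries, by genotype and hemisphere. Points are libraries, bars are the mean ± SD of 4 Ctrl or 3 cKO libraries, and grey lines join the hemispheres of the same mouse. *C1qb* to *C1qc* spanned 1.25-fold and *Itgam* to *Itgb2* 3.04-fold.

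*Itgam* (GRCm38, chr7:128062640-128118491, plus strand) followed the mouse rather than the hemisphere in Ctrl. In the CL libraries it stood at 650, 849, 1250 and 1714 CPM, and in the IL libraries at 750, 771, 1385 and 1439 CPM, for mice 3541, 3545, 3546 and 3551. Mice 3546 and 3551 were above 3541 and 3545 in both hemispheres, and *Lrp1*, a large endocytic receptor, had the same division, at 644 to 1201 against 254 to 447 CPM. In cKO, *Itgam* ranged from 919 to 1215 CPM in the CL and from 1204 to 1354 CPM in the IL libraries, which overlapped. *Itgb2* (GRCm38, chr10:77530252-77565708, plus strand), which pairs with several leukocyte integrin chains, ranged from 543 to 837 CPM in Ctrl CL and 751 to 852 in Ctrl IL, and from 590 to 803 in cKO CL and 800 to 957 in cKO IL libraries. On the log2 scale *Itgam* differed by 0.06 in Ctrl (SE 0.25, limma's adjusted p = 0.939) and 0.30 in cKO (SE 0.14, limma's adjusted p = 0.163). *Itgb2* differed by 0.26 in Ctrl (SE 0.17, limma's adjusted p = 0.428) and 0.45 in cKO (SE 0.17, limma's adjusted p = 0.0878). *Itgb2* in cKO was called in 1 of 14 alternatives, a joint fit of the 14 libraries in which the mouse was a random replicate block (limma's adjusted p = 0.0407). *Itgam* shares its locus with the gene model *Gm49368*, whose transcript matches it over 3453 bases at 99.9% identity and whose CPM was 0.49% to 1.19% of that of *Itgam*.

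**Figure D3:**
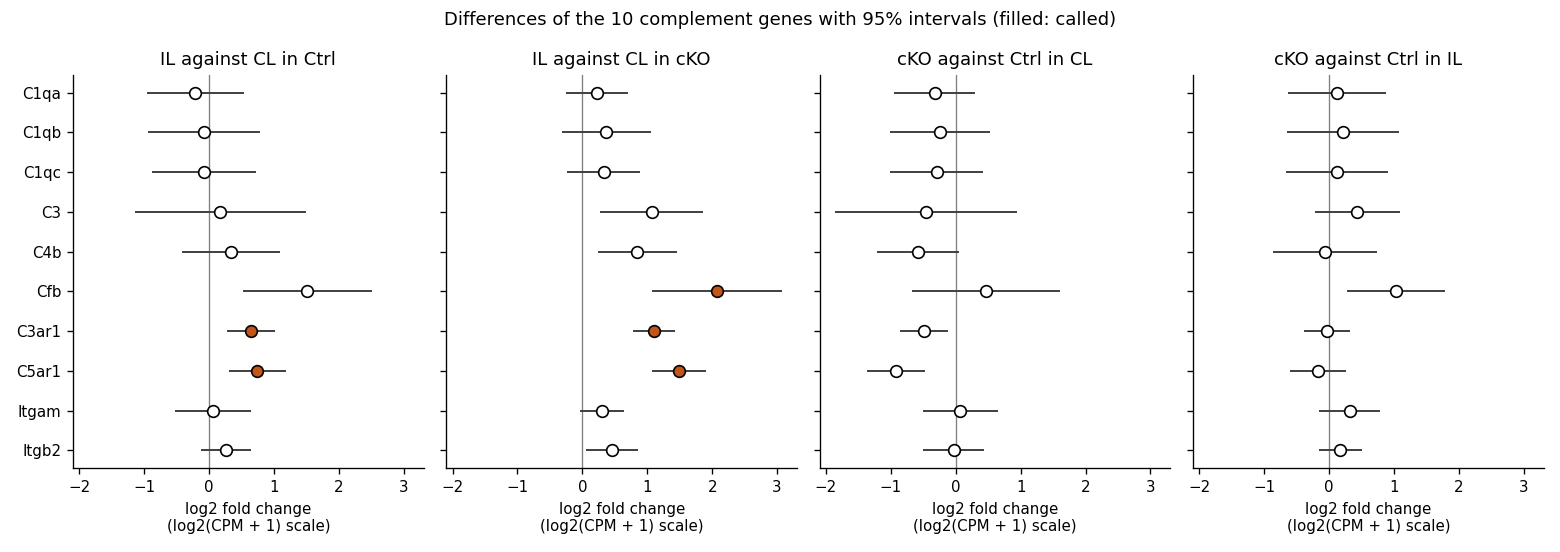
Log2 fold change (horizontal axes, on the log2(CPM + 1) scale) of the 10 complement genes in 4 comparisons. Lines are 95% intervals from limma and filled points passed the call rule. The filled points are *C3ar1* and *C5ar1* between hemispheres in both genotypes and *Cfb* in cKO.

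The second comparison asked whether the complement genes differ between cKO and Ctrl within a hemisphere. In the IL hemispheres 0 of 10 were called, beside 0.658% of 16873 genes tested, and in the CL hemispheres 0 of 10, beside 0.875% of 16569 genes. At an unadjusted p under 0.05, limma gave 1 of 10 genes in IL hemispheres (*Cfb*), beside 8.9% of all genes tested, and 2 of 10 in CL hemispheres (*C3ar1* and *C5ar1*), beside 9.81%. The 10 genes had a median log2 fold change of 0.15 in IL and -0.31 in CL hemispheres, beside 0.01 and -0.06 over all genes.

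In the CL hemispheres the cKO libraries stood below all Ctrl libraries for both peptide receptors. From the values above, *C5ar1* was 216 ± 45.3 CPM in cKO (mean ± SD, n = 3) against 406 ± 60.0 in Ctrl (n = 4), which differed by -0.93 on the log2 scale (SE 0.20, limma's adjusted p = 0.0609). *C3ar1* was 365 ± 52.8 CPM in cKO against 507 ± 19.5 in Ctrl, which differed by -0.49 (SE 0.16, limma's adjusted p = 0.294). Groups without overlap were found for 2 of 10 complement genes here and for 10% of all genes tested. *C5ar1* passed the call rule in 2 of 14 alternatives, joint fits of the 14 libraries without the mouse and with it as a random replicate block (limma's adjusted p = 0.0179 with the block). The summed neutrophil markers were 583 to 1638 CPM in cKO CL and 544 to 7764 CPM in Ctrl CL libraries. The summed oligodendrocyte markers were 80.8 to 113 CPM in cKO CL and 126 to 193 CPM in Ctrl CL libraries, without overlap, and those of border-associated macrophages had a median of 257 CPM in cKO CL and 480.4 CPM in Ctrl CL libraries, with overlap. Monocyte markers summed to a median of 119 CPM in cKO CL and 268 CPM in Ctrl CL libraries, also with overlap. Each gene of that list overlapped as well. *Chil3* was 45.1 to 95.7 CPM in cKO CL against 27.8 to 538 in Ctrl CL libraries, and *Ccr2* 21.8 to 72.8 against 30.8 to 40.9. The part of these markers in the values of the receptors was not tested.

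In the IL hemispheres the receptors overlapped between genotypes, with log2 fold changes of -0.17 for *C5ar1* (interval -0.59 to 0.24) and -0.03 for *C3ar1* (interval -0.37 to 0.31). *Cfb* was the single gene of the 10 whose genotypes did not overlap there, where 10.3% of all genes tested had no overlap. It stood at 30.4 ± 9.96 CPM in cKO (mean ± SD, n = 3) against 14.5 ± 4.58 in Ctrl (n = 4). *Cfb* gave 1.03 on the log2 scale (SE 0.33, limma's adjusted p = 0.314) and was not called. *C3* gave 0.44 (SE 0.28) and *C4b* -0.06 (SE 0.35), and the 3 C1q genes gave 0.12, 0.21 and 0.12, with limma's adjusted p values between 0.763 and 0.985. None of the 3 C1q genes was called between genotypes in either hemisphere, in any alternative.

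The third comparison asked whether the IL to CL difference depends on the genotype. The interaction gave 0 of 10 complement genes called with limma, where 0% of 18475 genes tested were called and 481 (2.6%) had an unadjusted p under 0.05. It was positive for 10 of 10 genes, where 57.3% of all genes were, with a median of 0.46 beside 0.04 over all genes. At an unadjusted p under 0.05 there were 2 of the 10, *C5ar1* at 0.75 (SE 0.27) and *C3ar1* at 0.46 (SE 0.20), each with a limma adjusted p of 0.9999. For both receptors the CL levels were lower in cKO than in Ctrl without overlap, and the IL levels overlapped between genotypes. The comparisons share libraries, so this is a single set of values seen from several sides. With the mouse as a replicate block over the 6 mice that gave both hemispheres, *C5ar1* gave 0.57 (SE 0.20) and *C3ar1* 0.43 (SE 0.17), with limma's adjusted p values of 0.909 and 0.910.

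A list of 46 other complement genes gives the setting, of which 41 had a row and the remaining 5 (*Mbl2*, *Cfd*, *C7*, *C9* and *Cd55b*) were not analysed here. The list was chosen with earlier results of these data known. Between hemispheres 27 genes were tested in each genotype, with 2 called higher (*Cfp* and *Cd93*) and 0 lower in the Ctrl IL hemisphere, and 3 higher (with *C1qbp*) and 1 lower (*Susd4*) in the cKO IL hemisphere. Of all genes tested, 2.96% were called lower in Ctrl and 9.52% in cKO, beside the 3.63% and 12.8% called higher. With the mouse as a replicate block there were 4 higher and 1 lower in Ctrl. *Itgax* and *Lrp1* were added among the higher, and *Fcnb* was the lower gene. In cKO that fit gave 4 higher, with *Masp1* added, and 3 lower, with *C5ar2* and *Clu* added. The same fit called 10.7% of all genes lower in Ctrl and 4.93% in cKO. *C5ar2*, unlike *C5ar1*, was lower in the IL hemisphere of every mouse that gave both. Its IL to CL ratios of CPM were 0.58 to 0.93 in Ctrl and 0.46 to 0.53 in cKO. Without the block *C5ar2* was not called in either genotype. A random replicate block gave 4 higher and 5 lower in Ctrl (*Cd55*, *Cr1l*, *Fcna*, *Fcnb* and *Masp2*), beside 10.9% and 12.2% of all genes, and 5 higher and 1 lower in cKO, beside 9.06% and 7.69%. The median log2 fold change of the list was -0.12 in Ctrl and 0.06 in cKO, beside -0.04 and 0.02 over all genes tested. Among the 14 genes of classical and lectin initiation 8 were tested, and without the block limma called 0 in either genotype, with 4 in Ctrl and 2 in cKO at an unadjusted p under 0.05, beside 21.1% and 36.6% of all genes tested. The genes of the terminal pathway were low, with *C6* and *C8g* at most 0.90 and 1.59 CPM, and *Hc* (C5), *C8a* and *C8b* at most 0.19 CPM.

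*Cfp*, encoding properdin, which stabilises the alternative pathway convertase that factor B forms, rose in both genotypes. It ranged from 26.8 to 61.4 CPM in the Ctrl CL and 98.7 to 147 CPM in the Ctrl IL libraries, without overlap, a rise of 1.65 on the log2 scale (SE 0.32, limma's adjusted p = 0.0151). In cKO it ranged from 24.4 to 66.8 CPM in the CL and 83.0 to 112 CPM in the IL libraries, a rise of 1.60 (SE 0.34, limma's adjusted p = 0.0136). *Cfp* was called in 14 of 16 alternatives in Ctrl and 13 of 14 in cKO. The call of *Cfp* was lost without the IL library of Ctrl mouse 3541 or 3545 (limma's adjusted p = 0.0544 and 0.0542) and, in cKO, without that of mouse 791 (0.0580).

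Among the other receptors, *Cd93*, a C-type lectin once named as a C1q receptor, rose in both genotypes. It ranged from 4.95 to 7.37 CPM in Ctrl CL and 29.2 to 54.9 in Ctrl IL, and from 4.29 to 9.60 in cKO CL and 20.1 to 30.5 in cKO IL libraries. On the log2 scale the increase was 2.51 in Ctrl (SE 0.23, limma's adjusted p = 4.62e-04) and 1.91 in cKO (SE 0.24, limma's adjusted p = 0.00274). *C1qbp*, a mitochondrial protein that binds the heads of C1q, rose in cKO by 0.54 on the log2 scale (SE 0.10, limma's adjusted p = 0.00797), from 52.5 to 58.7 CPM in the CL to 73.6 to 78.2 CPM in the IL libraries. The call was lost in the joint fit of the 14 libraries without the mouse (0.57, limma's adjusted p = 0.146) and kept in the other 13 alternatives. In Ctrl its log2 fold change was not called.

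Between genotypes, 2 of 28 genes of this list tested in the CL hemispheres were called (*Susd4* and *Itgad*), beside 0.875% of all genes tested. In the IL hemispheres 1 of 27 was called (*Itgad*), beside 0.658%. *Itgax*, encoding CD11c, another partner of *Itgb2*, was not called in cKO CL (1.09, SE 0.28, limma's adjusted p = 0.1295), where its groups did not overlap. It was called there with the mouse as a random replicate block (limma's adjusted p = 0.0351). That fit called 3 of 28 genes of the list, beside 290 of 18475 genes tested. *Susd4*, a membrane regulator of complement, stood at 7.08, 4.59 and 6.82 CPM in the cKO CL libraries (788, 791 and 3592) and at most 0.84 CPM in the other 11. It was higher in cKO CL by 2.20 on the log2 scale (SE 0.25, limma's adjusted p = 0.00176) and lower in cKO IL than in cKO CL (-2.15, SE 0.22, limma's adjusted p = 0.00183). Its interaction was -1.95 and not called (limma's adjusted p = 0.121). *Itgad*, encoding CD11d, a further partner of *Itgb2*, stood at 1.71 to 3.10 CPM over the 6 cKO and 0.10 to 0.57 CPM over the 8 Ctrl libraries. It was called higher in cKO CL (1.49 on the log2 scale, SE 0.19, limma's adjusted p = 0.00297) and cKO IL hemispheres (1.37, SE 0.19, limma's adjusted p = 0.0200), the latter in 8 of 14 alternatives. The call in the IL hemispheres was lost without any of those of Ctrl mice 3541, 3545 and 3551 and cKO mice 784 and 791 (limma's adjusted p 0.0532 to 0.113), and also without the filter on low values (0.0779). At these levels the log2(CPM + 1) scale makes changes smaller than they are in CPM.

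**Figure D4:**
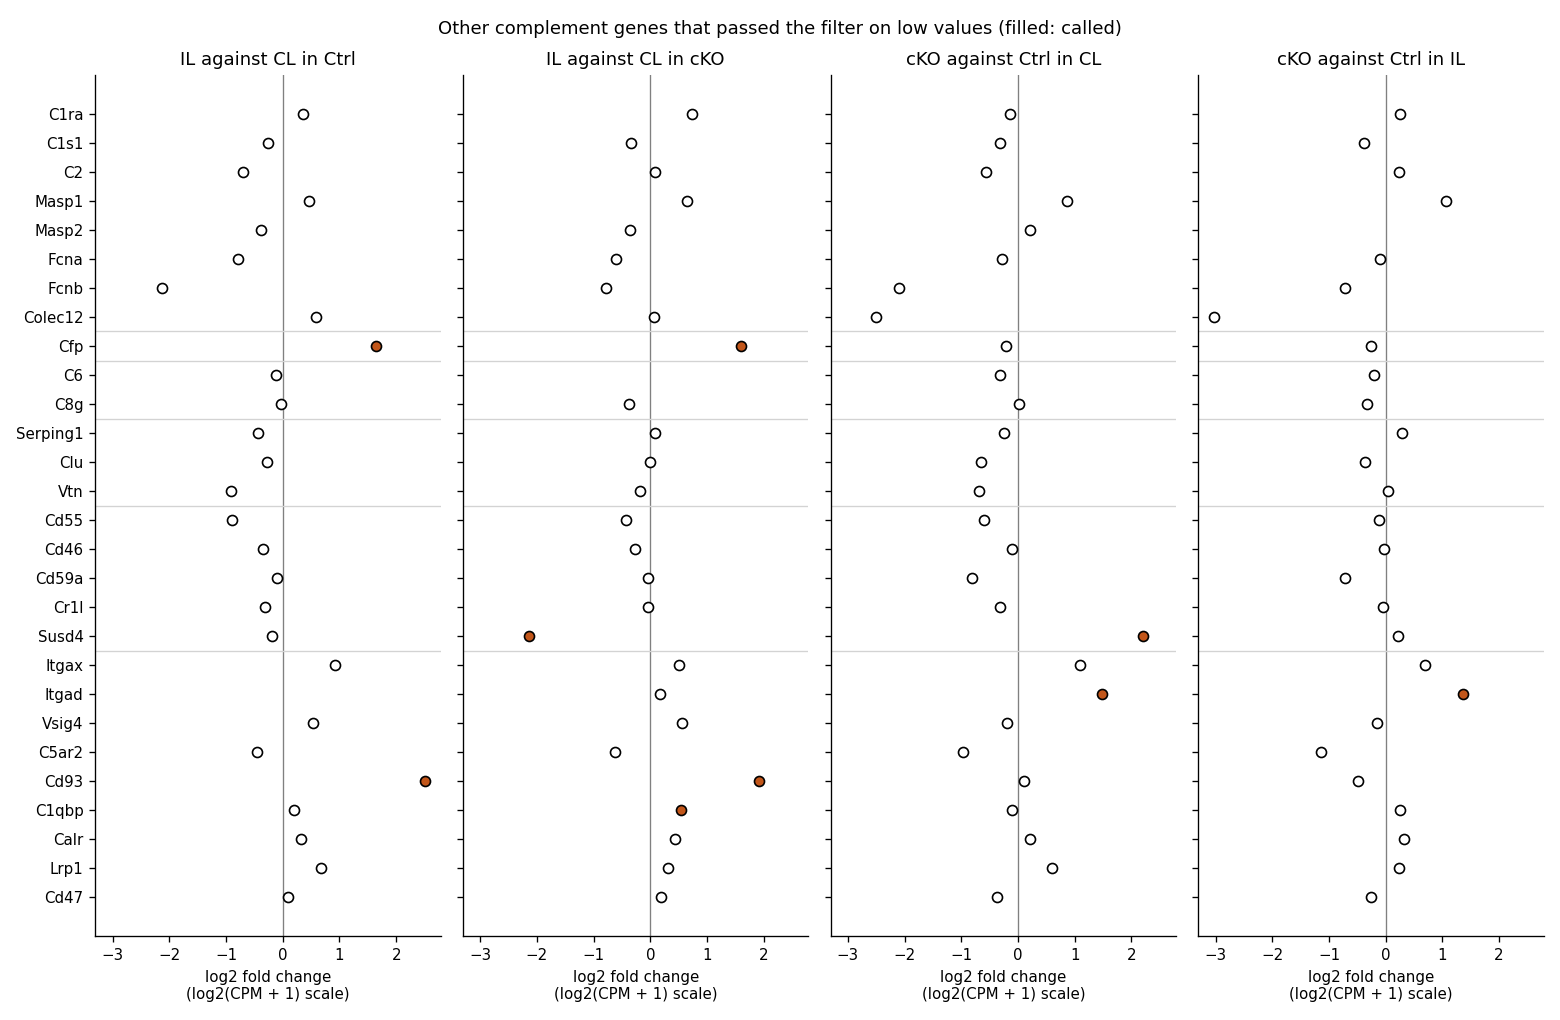
Log2 fold change (horizontal axes, on the log2(CPM + 1) scale) in 4 comparisons of the other complement genes that passed the filter on low values, in the order of initiation, alternative pathway, terminal pathway, fluid-phase regulators, membrane regulators and other receptors, parted by grey lines. Filled points passed the call rule, as *Cfp* and *Cd93* did between hemispheres in both genotypes. Genes under the filter in a comparison have no point there.

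The genes most like *Cfb*, by Pearson's r of log2(CPM + 1) over the 14 libraries among 9753 genes tested in every comparison with a mean of at least 3 on that scale, were *Oasl1* (0.981), *Dhx58* (0.979), *Oas1a* (0.973), *Zbp1* (0.970) and *Irf7* (0.969). Those most like *C1qa* were *Vps28* (0.962), *Mrps17* (0.959), *Ssna1* (0.959), *Polr2g* (0.958) and *Guk1* (0.958), and neither *C1qb* nor *C1qc* was among them. Those most like *C3* were *Sema4a* (0.878), *Cybb* (0.876), *Stx11* (0.861), *Lsp1* (0.859) and *Samhd1* (0.849), and those most like *C4b* were *Nfxl1* (0.910), *Naip5* (0.888), *Rab27a* (0.810), *Cul4b* (0.808) and *Slc8b1* (0.802). The points share libraries, groups and mice, so these values describe the 14 libraries.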

How the data were processed

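The authors mapped paired-end reads with STAR to mm10 in Partek Flow (8.0, per the labels), and deposited a value per gene named raw counts. The deposited values of each library sum to 1e+06, so they are CPM. Values under 100 reads are whole multiples of the value of 1 read for 79.0% to 83.7% of genes (tolerance 0.03), so count tests were not used. Depth (12.2 to 41.6 M reads) was taken from that step. The deposited tables of comparisons, with fold changes and p values, were not used.

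Libraries were scaled by trimmed means of M-values, from all genes, and log2(CPM + 1) was fitted with limma 3.58.1 (R 4.3.3) with a trend and empirical Bayes moderation, which was tested on simulated data. Genes tested reached the CPM of 10 reads at median depth in a number of libraries equal to the smaller group, and 15 reads' worth in total. Each comparison used its own libraries without a block, and the interaction used all 14. Lengths are those of the longest protein-coding GENCODE transcript. Mouse numbers mark the animal, and the hemispheres of a mouse deviated together from their group means (correlation 0.18 to 0.61 across genes). Alternatives were a pseudocount of 0.5, other scalings, no filter, the adjusted p alone, all 14 libraries, the replicate block and leaving out each library. The text names the 10 genes, each listed pathway gene called in a comparison, and the 5 genes most like *C1qa*, *C3*, *C4b* and *Cfb*. The targeted gene and 1 gene of the pathway list are not reported here. The members and lists were chosen with earlier results of these data known. p-values measure the spread between these libraries.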

Additional observations from a re-analysis of the deposited data

Results flagged for a closer look

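Values far from the other libraries of their group were found in 6 of 76 groups of 4 libraries, examined for the 10 complement genes and the pathway genes tested, where chance gives about 5% of groups. In the IL library of Ctrl mouse 3546, *C1qc* stood at 3041 CPM, against 5610 to 6064 CPM in the other Ctrl IL libraries. In the same library *Fcna* stood at 14.07 CPM against 4.77 to 4.98, *Cd55* at 4.91 against 0.683 to 1.40, *Cd46* at 1.14 against 0.206 to 0.279 and *C6* at 0.90 against 0.228 to 0.341 CPM. This library had the fewest reads, the highest *C4b* and the lowest *C1qa* and *C1qb*. In the CL library of Ctrl mouse 3551, *Colec12* stood at 19.7 CPM, against 121 to 130 CPM in the other Ctrl CL libraries.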

How the results depend on the processing

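Of the 10 complement genes, 2 were called between hemispheres in Ctrl (*C3ar1* and *C5ar1*). The count was 0 without the filter on low values, where the adjusted p rose to 0.101 and 0.105, and it ranged from 0 to 2 as single libraries were left out. It was 2 without the CL library of mouse 3541 (*C5ar1* and *Cfb*), 1 without the IL library of mouse 3546 (*C5ar1*) or 3551 (*C3ar1*), and 0 without any of the other 5 libraries. Between genotypes in the CL hemispheres the count was 0, and it was 1 (*C5ar1*) in joint fits of the 14 libraries without the mouse and with it as a random block. The cause was not tested.

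A sign changed for genes that were not called. With the deposited CPM not scaled further, *Itgam* in Ctrl was at -0.00968 on the log2 scale. With median-ratio scaling, *Itgb2* between genotypes in the CL hemispheres was at 0.00990. Leaving out single libraries gave a range across 0 between hemispheres in Ctrl for *C1qa* (-0.41 to 0.0861), *C1qb* (-0.31 to 0.22), *C1qc* (-0.25 to 0.21), *C3* (-0.42 to 0.57) and *Itgam* (-0.12 to 0.27). Between genotypes in the IL hemispheres it did so for *C1qa* (-0.18 to 0.28), *C1qb* (-0.0898 to 0.42), *C1qc* (-0.18 to 0.27), *C4b* (-0.32 to 0.25) and *C3ar1* (-0.13 to 0.04001). In the CL hemispheres it did so for *Cfb* (-0.0119 to 0.89), *Itgam* (-0.10 to 0.27) and *Itgb2* (-0.12 to 0.11). Of 941 values of 60 gene results under the alternatives, 880 kept their direction and their side of the threshold. Most of these results were not called in the main fits, and the adjusted p alone changed no call. The Ctrl calls between hemispheres held in 8 of 16 alternatives for *C3ar1* and 9 of 16 for *C5ar1*.

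The mouse number pairs the hemispheres. With the mouse as a replicate block, *Cfb* was also called in Ctrl (1.52 on the log2 scale, limma's adjusted p = 0.00566), for 3 of the 10 genes in Ctrl and 3 in cKO. The cKO fit with that block rests on 2 mice. With the mouse as a random block, *Itgb2* was called in cKO (limma's adjusted p = 0.0407). Apart from *C5ar1* between genotypes (above), the block fits changed no other call of the 10 genes or of *Cfp*, *Cd93*, *C1qbp*, *Susd4* and *Itgad*.

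Over all genes, the 1078 calls in Ctrl became 590 without the filter, 2009 in the joint fit, 4258 with the random block and 3358 with the fixed block, and 487 to 1413 as single libraries were left out. The 3746 calls in cKO became 1391 in the joint fit, 2315 with the fixed block and 1881 to 3537 as libraries were left out. Between genotypes, the 111 calls in the IL hemispheres became 69 without the filter, 190 with the random block and 46 to 284 as libraries were left out. The 145 in the CL hemispheres became 265 in the joint fit, 290 with the random block and 70 to 165 as libraries were left out. With the deposited CPM not scaled further, 625 genes were called higher and 814 lower in Ctrl, against 594 and 484 with scaling, and 1647 higher and 2146 lower in cKO, against 2150 and 1596. Depth limits genes of few CPM, since 1 CPM is 12.2 reads in the shallowest library.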

Other observations

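*Colec12*, a scavenger receptor of the collectin family on the list of lectin initiation, divided the Ctrl mice. It stood at 121, 125 and 130 CPM in the CL and 264, 195 and 243 CPM in the IL libraries of mice 3541, 3545 and 3546, but at 19.7 and 12.98 CPM in the CL and IL libraries of Ctrl mouse 3551. The 6 cKO libraries ranged from 8.22 to 21.8 CPM. Between genotypes it differed by -2.51 on the log2 scale in the CL (limma's adjusted p = 0.113) and -3.03 in the IL hemispheres (limma's adjusted p = 0.336), neither called. *Colec12* was singled out after its values were seen.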
